A study of Mus musculus with 66 samples.

Results

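SMARTer libraries were set against Ovation libraries made from the same kind of input, 2 ng of total RNA from formalin-fixed, paraffin-embedded normal mouse urothelium, the epithelium that lines the bladder. The members were chosen by title, as the 3 SMARTer and the 3 Ovation libraries of that tissue, preservation and input, which is 6 of the 66 libraries of the series. The SMARTer group was built with the SMARTer Stranded Total RNA-Seq Kit in its Pico Input form, and the Ovation group with the Ovation SoLo RNA-seq System. In both groups the urothelium came from 9 mice, was held in buffered formalin for 24 hours, embedded in wax, and extracted from 10 slices of 5 µm. Per the labels' protocols, the urothelium of each mouse was divided, so that a frozen part exists beside the fixed one. The sources used here do not say how the tissue of the 9 mice was combined, nor their strain, sex or age. The comparison asks how far the measured expression profile depends on the library kit when the RNA is fixed and scarce.

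Both kits start from total RNA rather than from poly(A)-selected mRNA, so their libraries can hold ribosomal, small nuclear, small nucleolar and mitochondrial RNA beside mRNA. Per the labels' protocols, both treat the RNA with DNase. In the SMARTer kit the reverse transcriptase adds untemplated bases when it reaches the end of an RNA fragment, and these bases serve as the landing place for the adapter. In the Ovation kit random primers start the cDNA, adapters are ligated, and ribosomal sequence is depleted by the InDA-C technology before the last amplification. Ribosomal depletion in the SMARTer kit is not covered here, so the shares below should not be read as depleted against undepleted RNA. Formalin crosslinks and breaks RNA, and fixed material therefore yields short fragments. The small RNAs discussed here have defined roles. The U snRNAs form the spliceosome, box C/D and box H/ACA snoRNAs guide the modification of rRNA, Y RNAs are bound by the Ro protein, and 5S rRNA is the small RNA of the large ribosomal subunit that polymerase III transcribes.

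Sequences of small RNA genes with large differences between the kits are printed first, because near-identical copies among them may share reads. All were taken from GENCODE M21 transcripts on GRCm38 (mm10), 5′ to 3′. Genes with Gm symbols were chosen after their values were seen. Gm23935, on the plus strand at chr16:11144125-11144181, and Gm24270, on the minus strand at chr9:56223715-56223771, are annotated as miRNA genes and share all 57 bases. Gm24187, on the minus strand at chr13:9834469-9834525, differs from Gm23935 by G11A, counted from 1 at the 5′ end. Capitals mark that base, and 73.7% of the Gm23935 sequence is G or C.
Gm23935: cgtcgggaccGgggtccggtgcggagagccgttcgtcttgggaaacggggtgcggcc
Gm24187: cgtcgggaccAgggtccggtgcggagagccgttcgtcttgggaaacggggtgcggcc

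Gm24265 (chr5:115489459-115489599, plus strand) and Gm24407 (chr5:115490254-115490394, plus strand) are annotated as snRNA genes and match at 139 of 141 bases. The differences are G88A and C99A, shown in capitals.
Gm24265: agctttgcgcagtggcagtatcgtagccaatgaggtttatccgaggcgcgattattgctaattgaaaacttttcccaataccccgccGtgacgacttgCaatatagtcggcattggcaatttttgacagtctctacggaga
Gm24407: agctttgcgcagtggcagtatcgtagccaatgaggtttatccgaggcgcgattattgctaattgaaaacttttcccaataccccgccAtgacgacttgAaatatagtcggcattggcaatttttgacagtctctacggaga

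The Y RNA genes Rny1 (chr6:47788069-47788180, minus strand) and Rny3 (chr6:47781624-47781725, plus strand) are distinct sequences. Their longest shared run, in capitals, has 12 bases.
Rny1: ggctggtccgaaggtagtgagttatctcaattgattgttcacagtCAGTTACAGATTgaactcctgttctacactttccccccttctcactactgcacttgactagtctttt
Rny3: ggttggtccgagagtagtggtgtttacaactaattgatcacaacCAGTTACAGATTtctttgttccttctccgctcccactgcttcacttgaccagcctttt

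Snord87 (chr1:9942463-9942549, minus strand) is the box C/D snoRNA gene shown for those that were higher with SMARTer. Capitals mark TGATGA and CTGA, the letters searched for on the transcript strand as box C and box D. Of 1507 annotated snoRNA transcripts, 380 (25.2%) hold both.
Snord87: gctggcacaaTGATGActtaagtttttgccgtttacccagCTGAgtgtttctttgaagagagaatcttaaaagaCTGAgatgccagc

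The SMARTer libraries held 3599113, 3390528 and 780106 gene counts, and the Ovation libraries 3006989, 2605346 and 3109965. SMARTer library 3 stood apart from the other 5 before any test. Over 25404 genes averaging 1 CPM or more, its log2(CPM + 1) values correlated with the other libraries at r = 0.521 to 0.541. SMARTer libraries 1 and 2 correlated with each other at 0.967 and with the Ovation libraries at 0.953 to 0.957, and the Ovation libraries among themselves at 0.980 to 0.981. Library 3 had the fewest counts but listed 30912 genes with a count, against 20100 and 19739 in SMARTer libraries 1 and 2 and 20394 to 20878 in the Ovation libraries. In SMARTer library 3, 7 predicted genes took 13.3% of all counts, against 0.0206% and 0.0180% in the other SMARTer libraries and 0.0219% to 0.0245% in the Ovation libraries. These 7 genes (Gm10800, Gm10801, Gm21738, Gm26870, Gm10718, Gm11168 and Gm10717) were chosen for their excess in that library. Ttn, the giant sarcomere protein titin, stood at 9.47, 18.7 and 804 CPM in the SMARTer libraries and at 8.46, 4.69 and 6.85 CPM in the Ovation libraries. The main results are given with all 6 libraries and without SMARTer library 3. CPM values are counts scaled to library size, with TMM factors over the 6 libraries, and SE is the standard error of a log2 fold change, SMARTer over Ovation.

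The gene counts by RNA class separated the kits for several classes of small noncoding RNA. SnRNA genes took 0.151%, 0.107% and 0.283% of counts in the SMARTer libraries and 1.20%, 1.08% and 1.00% in the Ovation libraries. Genes annotated as rRNA, of which n-R5s124 is an example, took 0.0323%, 0.0196% and 0.0533% in the SMARTer libraries and 0.363%, 0.346% and 0.346% in the Ovation libraries. In both classes every SMARTer library lay below every Ovation library. The misc_RNA genes, which include the Y RNAs and 7SK, were also lower in each SMARTer library, with 1.10%, 1.04% and 0.817% against 1.76%, 1.69% and 1.53% in the Ovation libraries. SnoRNA and scaRNA genes took 0.586%, 0.469% and 1.11% in the SMARTer libraries and 1.28%, 1.19% and 1.05% in the Ovation libraries, where SMARTer library 3 overlapped the Ovation range. Genes annotated as miRNA other than Gm23935 went the other way, with 0.837%, 0.855% and 0.617% in the SMARTer libraries and 0.226%, 0.239% and 0.218% in the Ovation libraries. Most of that SMARTer share was Gm24270 and Gm24187, the copies of Gm23935, so it does not describe the other miRNA genes. Gm24270 had 14673, 14088 and 1514 counts in the SMARTer libraries and 113, 138 and 123 in the Ovation libraries. Gm24187 had 6149, 6626 and 1111 counts in the SMARTer libraries and 106, 87 and 58 in the Ovation libraries. Long noncoding RNA genes took 4.51%, 4.76% and 5.94% in the SMARTer libraries and 4.32%, 4.37% and 4.41% in the Ovation libraries. Pseudogenes took 0.745%, 0.892% and 2.36%, and 0.669%, 0.672% and 0.611%, in that order. The exact two-sided permutation test gave p = 0.1 for snRNA, rRNA, misc_RNA, miRNA, long noncoding RNA and pseudogene shares (0.2 after Benjamini-Hochberg adjustment over the measures). With 3 against 3 libraries 0.1 is the smallest possible value, so no class share could pass 0.05.

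Mitochondrial RNA split by kind. The 13 mitochondrially encoded mRNAs, which specify subunits of the respiratory chain and of ATP synthase, took 2.16%, 2.51% and 3.68% of counts in the SMARTer libraries and 5.83%, 6.11% and 6.08% in the Ovation libraries. Mitochondrial rRNA took 8.65%, 9.28% and 3.16% in the SMARTer libraries and 4.45%, 4.37% and 4.28% in the Ovation libraries. For the mRNAs the groups did not overlap, and for the rRNAs SMARTer libraries 1 and 2 were about double the Ovation level while library 3 lay below it. The 5 loci listed as resembling ribosomal repeats showed the same split, at 13.6%, 10.3% and 2.44% in the SMARTer libraries and 4.13%, 3.95% and 4.11% in the Ovation libraries. The exact permutation p was 0.1 for the mitochondrial mRNAs and 0.4 for the mitochondrial rRNAs and for the ribosomal-repeat loci. The 10 highest genes of a library took 27.98%, 25.5% and 20.2% of counts in the SMARTer libraries and 15.9%, 15.9% and 15.8% in the Ovation libraries (exact permutation p = 0.1).

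**Figure D1:**
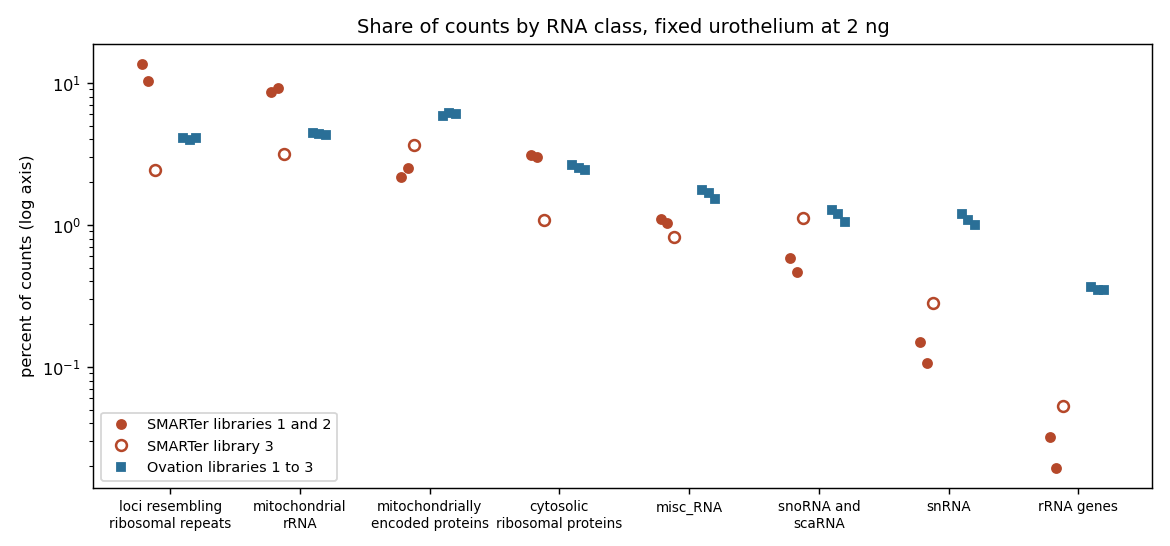
Share of all gene counts (percent, log axis) taken by 8 RNA classes in each library, SMARTer libraries left (library 3 as open circles) and Ovation libraries right in each pair. SMARTer libraries lie below Ovation libraries for mitochondrially encoded proteins, misc_RNA, snRNA and rRNA genes, and library 3 lies apart from the other SMARTer libraries in most classes.

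Thinned to 780106 counts each, the SMARTer libraries had 12033, 12212 and 22369 genes with 5 or more counts and the Ovation libraries 12271, 12210 and 12185. SMARTer libraries 1 and 2 lay close to the Ovation libraries and SMARTer library 3 far above them (exact permutation p = 0.8).

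With all 6 libraries, 163 of 14466 tested genes (1.13%) passed at an adjusted p under 0.05 by edgeR's quasi-likelihood method, 43 higher (0.297%) and 120 lower (0.83%) with SMARTer. All 163 differed by at least 2-fold. Without SMARTer library 3, 4124 of 14786 genes (27.9%) passed, 1975 higher (13.4%) and 2149 lower (14.5%), of which 1446 differed by at least 2-fold. All 163 genes were also called, in the same direction, without that library. The common biological coefficient of variation was 0.374 with all 6 libraries and 0.137 without SMARTer library 3. The sources used here do not say that repeat libraries came from separate RNA samples, so these p-values measure the spread between libraries, which may be technical. The kits' counts also come from separate tables, and the kit and anything handled with it cannot be told apart.

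By annotated class, the 163 genes were rich in small RNAs, as shares of what was tested. They comprised 74 protein-coding genes of 12407 tested (22 higher, 52 lower), 38 snoRNA genes of 150 (8 higher, 30 lower), 15 snRNA genes of 41 (2 higher, 13 lower), 4 misc_RNA genes of 43 (all lower), 4 miRNA genes of 56 (all higher), 3 scaRNA genes of 13 and 2 rRNA genes of 9. Without SMARTer library 3, calls were made in 3463 of 12509 protein-coding genes (1679 higher, 1784 lower), 95 of 165 snoRNA genes (22 higher, 73 lower), 34 of 51 snRNA genes (7 higher, 27 lower), 35 of 80 miRNA genes (22 higher, 13 lower) and 23 of 53 misc_RNA genes (6 higher, 17 lower). Tested on protein-coding genes alone, the 6 libraries gave 4 calls in 12451 genes (Gng5, Fam221b, Zfp422 and mt-Atp8), so the calls of the other protein-coding genes named below for all 6 libraries ended there. Protein-coding genes alone gave 3621 calls in 12493 without SMARTer library 3. With SMARTer library 3 kept, there were 36 calls without SMARTer library 1, 29 without SMARTer library 2, and 10 or 11 without any 1 Ovation library, and without SMARTer library 3 and a further library each in turn 2888 to 4297 remained.

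Polymerase III transcripts and spliceosomal RNAs were among the genes that fell the most. The 5S gene n-R5s124 had 1, 0 and 0 counts in the SMARTer libraries, against 5053, 4190 and 5061 counts in the Ovation libraries. That is a ratio of 8.28e-05 (exact 95% counting interval 2.10e-06 to 0.000462), with an adjusted p of 0.000301 by edgeR. Gm25018, another gene annotated as rRNA, has the same counts in all 6 libraries, so the values are uncertain for either gene alone. Rny1 stood at 82.4, 70.2 and 76.1 CPM in the SMARTer libraries and 1799.8, 1504 and 1351 CPM in the Ovation libraries, a log2 fold change of -4.35 (SE 0.43, adjusted p 0.00348 by edgeR) with all 6 libraries and -4.35 without SMARTer library 3. Rny3 stood at 207, 137 and 256 CPM in the SMARTer libraries and 1613, 1383 and 1323 CPM in the Ovation libraries (log2 fold change -2.85, SE 0.43, adjusted p 0.0252 by edgeR). Both Y RNAs were lower in every SMARTer library, library 3 included, which was a condition of the rule by which Rny1 was named.

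Rnu5g, a gene of the U5 snRNA, had 5.68, 4.51 and 3.81 CPM in the SMARTer libraries and 74.1, 71.9 and 53.5 CPM in the Ovation libraries, a log2 fold change of -3.75 (SE 0.28, adjusted p 0.000997 by edgeR). The snRNA gene Gm25313 fell by 4.19 on the log2 scale. Gm24265 had 263, 155 and 228 CPM in the SMARTer libraries and 4578, 4191 and 3779 CPM in the Ovation libraries (log2 fold change -4.28, SE 0.53, adjusted p 0.0081 by edgeR), and its near copy Gm24407 241, 127 and 233 CPM and 4159, 3662 and 3426 CPM. Rnu12, the U12 snRNA of the minor spliceosome, was also lower, with 24, 16.7 and 21.6 CPM in the SMARTer libraries and 104, 94.5 and 95.2 CPM in the Ovation libraries (log2 fold change -2.24, adjusted p 0.00361 by edgeR). How reads were divided between Gm24265 and Gm24407 is not known. Other polymerase III transcripts differed less or in the other direction. Rn7sk, the 7SK RNA that restrains the elongation factor P-TEFb, had 8552, 8167 and 4369.5 CPM in the SMARTer libraries and 12034, 12022 and 10581 CPM in the Ovation libraries, which did not pass with all 6 libraries (log2 fold change -0.72, adjusted p 0.51 by edgeR) and did without SMARTer library 3 (-0.47, adjusted p 4.3e-08). Rn7s2, a copy of the signal recognition particle RNA, had 1948, 1200.1 and 899.5 CPM in the SMARTer libraries and 530.2, 489.5 and 459 CPM in the Ovation libraries, and was higher with SMARTer without library 3 (log2 fold change 1.67, adjusted p 9.5e-13 by edgeR; 1.45 and 0.143 with all 6). In the list of polymerase III and spliceosomal RNAs, 3 of 12 tested members were lower and the others did not pass with all 6 libraries. Without SMARTer library 3, 4 were higher and 7 lower of 13, against 13.4% and 14.5% over all genes tested.

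SnoRNA genes moved both ways. Of 163 tested snoRNA and scaRNA genes, 8 were higher and 33 lower with all 6 libraries (median log2 fold change -0.55, against 0.09 over all genes tested), and of 179 without SMARTer library 3, 22 were higher and 82 lower (median -0.79, against 0.01). Over all genes tested, 0.297% were higher and 0.83% lower with all 6 libraries, and 13.4% and 14.5% without SMARTer library 3. Snora9, a box H/ACA snoRNA, had 38.5, 30.9 and 12.7 CPM in the SMARTer libraries and 390.1, 379 and 314 CPM in the Ovation libraries (log2 fold change -3.66, SE 0.43, adjusted p 0.00659 by edgeR). It lies within an exon of its host gene Snhg15 on the same strand, which had 43.6, 38 and 25.4 CPM in the SMARTer libraries and 397, 382 and 315 CPM in the Ovation libraries, so the same reads may count for both. Snord13 had 2.84, 2.25 and 7.61 CPM in the SMARTer libraries and 37.2, 42.2 and 40.8 CPM in the Ovation libraries (log2 fold change -3.53, SE 0.43, adjusted p 0.00782 by edgeR). Snord104 had 14.5, 7.4 and 7.61 CPM in the SMARTer libraries and 108, 102 and 115 CPM in the Ovation libraries (log2 fold change -3.39, adjusted p 0.00195 by edgeR).

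In the opposite direction, Snord87 had 139.6, 73.7 and 83.7 CPM in the SMARTer libraries and 14.2, 10.5 and 17.3 CPM in the Ovation libraries (log2 fold change 2.82, SE 0.32, adjusted p 0.00649 by edgeR). Snord22, which overlaps an exon of its host Snhg1, had 228, 155 and 667 CPM in the SMARTer libraries and 22, 28.5 and 27.1 CPM in the Ovation libraries (log2 fold change 3.75 with all 6 libraries, adjusted p 0.0265 by edgeR, and 2.88 without SMARTer library 3). Snora21 had 140.2, 91.7 and 434 CPM in the SMARTer libraries and 19.96, 17.6 and 12.4 CPM in the Ovation libraries (log2 fold change 3.71, adjusted p 0.0301 by edgeR, and 2.79 without SMARTer library 3). For Snord22 and Snora21 the highest value was that of SMARTer library 3, whereas for Snord87 it was that of SMARTer library 1. Snord55 and Snord15a were higher as well, by 2.34 and 1.70 on the log2 scale.

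The host genes of snoRNAs were lower more often than higher. Of 11 tested hosts, 2 were lower with all 6 libraries (Snhg15 and Snhg3), against 0.83% over all genes tested. Without SMARTer library 3, 1 was higher and 5 lower, against 13.4% and 14.5% over all genes tested. Snhg3 had 76.4, 49.6 and 38.1 CPM in the SMARTer libraries and 251, 244 and 223 CPM in the Ovation libraries (log2 fold change -2.11, SE 0.33, adjusted p 0.0279 by edgeR). Its exons overlap those of Snora73a by 159 bases and those of Rcc1 by 107 bases on the same strand. As for Snhg15 and Snora9, the same reads may count for more than 1 gene.

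Gm24270, the exact copy of Gm23935, had 4634, 4535 and 1921 CPM in the SMARTer libraries and 38.2, 53.9 and 40.1 CPM in the Ovation libraries (log2 fold change 6.39, SE 0.64, adjusted p 0.00361 by edgeR). Gm24187, with the G11A difference, had 1942, 2133 and 1409.6 CPM in the SMARTer libraries and 35.9, 34 and 18.9 CPM in the Ovation libraries (log2 fold change 5.95, SE 0.53, adjusted p 0.00195 by edgeR). Gm23935 itself had 87236, 74609 and 17844 CPM in the SMARTer libraries and 2969, 2929 and 2773 CPM in the Ovation libraries. It did not pass with all 6 libraries (log2 fold change 4.37, SE 0.94, adjusted p 0.071 by edgeR) and did without SMARTer library 3 (4.80, SE 0.050, adjusted p 1.37e-33). All 3 copies were higher in each SMARTer library than in any Ovation library, and for identical copies the division of reads is uncertain.

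The other loci listed as resembling ribosomal repeats did not share that pattern. Gm42418 had 57698, 30938 and 4966 CPM in the SMARTer libraries and 30420.4, 29091 and 30885 CPM in the Ovation libraries, with a log2 fold change of 0.05 with all 6 libraries (adjusted p 0.981 by edgeR) and 0.55 without SMARTer library 3 (adjusted p 0.000384). Its value with all 6 libraries turned negative under total-count scaling, with limma on the log2 values and with the replicate block. Gm26917 had 7505, 6312 and 1058 CPM in the SMARTer libraries and 7335, 7101 and 6672 CPM in the Ovation libraries and passed in neither fit (adjusted p 0.717 and 0.711 by edgeR). Lars2, the mitochondrial leucyl-tRNA synthetase, had 1551, 767 and 246 CPM in the SMARTer libraries and 689.9, 618 and 689.5 CPM in the Ovation libraries, and Gm15564, an antisense gene, 255, 118 and 21.6 CPM and 576, 458 and 669 CPM. Lars2 was higher without SMARTer library 3 (log2 fold change 0.79, adjusted p 7.06e-05 by edgeR) and Gm15564 lower (-1.62, adjusted p 2.07e-08). With all 6 libraries no member of the list passed (edgeR, 2 of 5 at an unadjusted p under 0.05, and 1 higher and 1 lower with DESeq2).

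**Figure D2:**
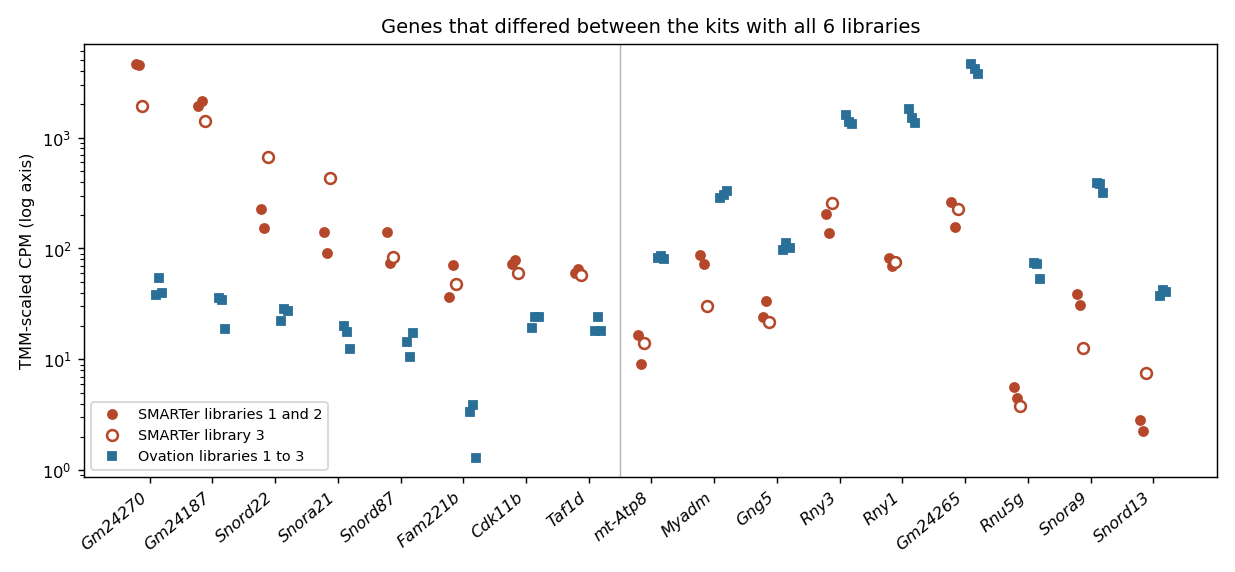
TMM-scaled CPM (log axis) of 17 genes in each library, genes higher with SMARTer left of the line and genes lower with SMARTer right of it. For each gene the SMARTer libraries are left, with library 3 as open circles, and the Ovation libraries right. The groups do not overlap for any gene shown, which was a condition of the rule for naming genes, and Gm genes were chosen after their values were seen.

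Mitochondrially encoded mRNAs were lower with SMARTer, and mitochondrial rRNAs were higher once SMARTer library 3 was left out. Of the 13 mRNAs, 2 were lower with all 6 libraries, mt-Atp8 and mt-Atp6, and 12 were lower without SMARTer library 3 (medians of -0.89 and -1.45, against 0.09 and 0.01 over all genes tested). Over all genes tested 0.83% and 14.5% were lower in these fits. The gene mt-Atp8, a short subunit of ATP synthase encoded at chrM:7766-7969, had 16.7, 9.01 and 14 CPM in the SMARTer libraries and 82.2, 86 and 80.2 CPM in the Ovation libraries (log2 fold change -2.65, SE 0.27, adjusted p 0.00361 by edgeR). Its coding sequence overlaps that of mt-Atp6 by 43 bases, and mt-Atp6 had 66.3, 81.4 and 43.1 CPM in the SMARTer libraries and 214, 200.4 and 213 CPM in the Ovation libraries (log2 fold change -1.70, adjusted p 0.0412 by edgeR).

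The gene mt-Co1, the catalytic subunit of cytochrome c oxidase, had 5951, 6657 and 6679 CPM in the SMARTer libraries and 18178, 19008 and 18283 CPM in the Ovation libraries. Its log2 fold change was -1.52 with all 6 libraries (SE 0.60, adjusted p 0.215 by edgeR) and -1.56 without SMARTer library 3 (SE 0.051, adjusted p 1.77e-20). The groups did not overlap and the size was alike in both fits, while the call was made only without SMARTer library 3. The gene mt-Nd1, a subunit of complex I, had 2355, 2544 and 3218 CPM in the SMARTer libraries and 7524, 7933 and 7679 CPM in the Ovation libraries, with log2 fold changes of -1.51 and -1.66 in these fits. The gene mt-Nd3, another complex I subunit, had 55.3, 44.1 and 409 CPM in the SMARTer libraries and 303, 329 and 288 CPM in the Ovation libraries. SMARTer library 3 alone lay above the Ovation libraries, and the log2 fold change was -0.89 with it (adjusted p 0.52 by edgeR) and -2.63 without it (adjusted p 1.52e-16).

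The mitochondrial rRNA of the small subunit, mt-Rnr1, had 46053, 48747 and 15443 CPM in the SMARTer libraries and 15284, 15154 and 14497 CPM in the Ovation libraries. It did not pass with all 6 libraries (adjusted p 0.359 by edgeR) and was higher without SMARTer library 3 (log2 fold change 1.65, SE 0.039, adjusted p 4.98e-24). The gene mt-Rnr2, that of the large subunit, had 52319, 52518 and 15863 CPM in the SMARTer libraries and 29978, 29339 and 28935 CPM in the Ovation libraries, with a log2 fold change of 0.83 without SMARTer library 3 (adjusted p 1.31e-17 by edgeR). For both rRNAs SMARTer libraries 1 and 2 lay above the Ovation libraries and library 3 near or below them.

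Mitochondrial tRNA genes differed among themselves. Of 21 tested, none passed with all 6 libraries (edgeR, 6 at an unadjusted p under 0.05, 5 higher with DESeq2). Without SMARTer library 3, 5 were higher and 10 lower, against 13.4% and 14.5% over all genes tested. The gene mt-Ty, the tRNA for tyrosine, had 123.79, 168 and 1128 CPM in the SMARTer libraries and 925, 987 and 913 CPM in the Ovation libraries, a log2 fold change of -2.70 without SMARTer library 3 (SE 0.10, adjusted p 1.18e-18 by edgeR). The gene mt-Td, the tRNA for aspartate, went the other way, with 36.3, 60.8 and 6.34 CPM in the SMARTer libraries and 6.77, 7.42 and 3.59 CPM in the Ovation libraries (3.03, SE 0.30, adjusted p 5.14e-09 by edgeR). The gene mt-Ts1, a tRNA for serine, had 65.7, 113 and 7.61 CPM in the SMARTer libraries and 15.2, 15.2 and 9.78 CPM in the Ovation libraries and was likewise higher (2.73, adjusted p 1.67e-10).

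Of 12407 protein-coding genes tested with all 6 libraries, 22 were called higher and 52 lower with SMARTer. Over all genes tested 0.297% were higher and 0.83% lower. The rule for naming genes asked for 20 CPM or more on average in whichever group was higher and no overlap between the groups. Under it 21 of the higher and 51 of the lower genes remained. Fam221b, at chr4:43659622-43669145, had the largest rise, with 36.6, 70.8 and 48.2 CPM in the SMARTer libraries and 3.38, 3.91 and 1.3 CPM in the Ovation libraries (log2 fold change 4.18, SE 0.44, adjusted p 0.00361 by edgeR). Its exons overlap those of Tmem8b and Gm12481 on the opposite strand by 175 and 297 bases. Cdk11b, a cyclin-dependent kinase linked to transcription and splicing, had 72, 79.5 and 59.6 CPM in the SMARTer libraries and 19.3, 24.2 and 24.1 CPM in the Ovation libraries (log2 fold change 1.65, SE 0.22, adjusted p 0.0131 by edgeR). Taf1d, a factor of RNA polymerase I whose transcripts hold several snoRNAs, had 60.3, 66 and 57.1 CPM in the SMARTer libraries and 17.9, 24.2 and 17.9 CPM in the Ovation libraries (log2 fold change 1.62, adjusted p 0.0156 by edgeR).

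Srp54c, a copy of the 54 kDa subunit of the signal recognition particle, had 32.2, 17.7 and 10.1 CPM in the SMARTer libraries and 1.69, 3.13 and 2.28 CPM in the Ovation libraries (log2 fold change 3.10, SE 0.56, adjusted p 0.0426 by edgeR). Padi4 (peptidylarginine deiminase), Pcnt (the centrosome protein pericentrin), Nsrp1 (a splicing regulator), Unc45a (a myosin chaperone) and Nucb2 (nucleobindin) were higher by 1.41 to 1.60 on the log2 scale, each without overlap. Pcnt, for example, had 88.4, 73.4 and 107 CPM in the SMARTer libraries and 26.7, 28.9 and 39.8 CPM in the Ovation libraries. Ccdc38 was higher by 1.75, and its exons overlap those of the splicing factor gene Snrpf on the opposite strand by 502 bases. Snrpf had 56.2, 55.4 and 20.3 CPM in the SMARTer libraries and 16.2, 19.1 and 11.1 CPM in the Ovation libraries and was higher without SMARTer library 3 (log2 fold change 1.85, adjusted p 2.5e-07 by edgeR).

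In the lower direction, Myadm, a membrane protein first described in myeloid differentiation, had 87.5, 72.4 and 30.4 CPM in the SMARTer libraries and 288, 305 and 327 CPM in the Ovation libraries (log2 fold change -2.24, SE 0.40, adjusted p 0.0412 by edgeR). Gng5, a gamma subunit of heterotrimeric G proteins at chr3:146499807-146505572, had 24.3, 33.5 and 21.6 CPM in the SMARTer libraries and 96.8, 111 and 101 CPM in the Ovation libraries (log2 fold change -1.93, SE 0.24, adjusted p 0.00916 by edgeR). Vma21, an assembly factor of the vacuolar proton pump, had 25.9, 27.4 and 7.61 CPM in the SMARTer libraries and 106, 105 and 87 CPM in the Ovation libraries (log2 fold change -2.17, adjusted p 0.0312 by edgeR). Cggbp1, which binds CGG repeats, had 66.9, 73.4 and 43.1 CPM in the SMARTer libraries and 208, 213 and 231 CPM in the Ovation libraries (log2 fold change -1.81, adjusted p 0.0312 by edgeR). In each of these 4 genes every SMARTer library lay below every Ovation library, and library 3 was the lowest in each. Zxdb, Fam122b, AW549877, Klhl15 (an adaptor of ubiquitin ligases) and Ppp6c (the catalytic subunit of protein phosphatase 6) were lower by 1.80 to 2.50 on the log2 scale.

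Without SMARTer library 3, 1679 of 12509 tested protein-coding genes were called higher and 1784 lower, against 13.4% and 14.5% over all genes tested. Under the same rule 1391 of the higher and 1582 of the lower genes remained. Beside Fam221b, Srp54c and Cdk11b, the leading higher genes included Rplp2, an acidic protein of the ribosomal stalk at chr7:141447370-141451585. Rplp2 had 858, 758 and 134 CPM in the SMARTer libraries and 192, 188 and 152 CPM in the Ovation libraries, so that library 3 lay below all Ovation libraries and libraries 1 and 2 far above them. The log2 fold change was 2.18 without SMARTer library 3 (SE 0.095, adjusted p 2.26e-17 by edgeR) and 1.73 with it (SE 0.61, adjusted p 0.185). The gene's exons also hold Snora52 (137 bases on the same strand). Rpl34, another ribosomal protein, had 455, 449 and 143 CPM in the SMARTer libraries and 142, 119.9 and 111 CPM in the Ovation libraries (1.86, adjusted p 6.99e-15 by edgeR without library 3).

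Tmsb10, a thymosin that binds actin monomers, had 119, 102 and 46.9 CPM in the SMARTer libraries and 27.1, 23.8 and 32.9 CPM in the Ovation libraries (1.97, adjusted p 1.87e-10 by edgeR without library 3, and 1.70, adjusted p 0.056 with it). Edf1, a transcriptional coactivator, and Ppp1r15a, which directs a phosphatase to the initiation factor eIF2, were higher by 2.22 and 2.07 in that fit. Tmem64 was the most abundant of the leading lower genes, with 363, 396 and 131 CPM in the SMARTer libraries and 1421, 1469 and 1495 CPM in the Ovation libraries. Its log2 fold change was -1.95 without SMARTer library 3 (SE 0.077, adjusted p 2.04e-18 by edgeR) and -2.30 with it (adjusted p 0.0754). Fbxl2, an F-box protein, and Prrg1 were lower by 1.99 and 1.94 without SMARTer library 3, and their values in SMARTer library 3 lay nearer the Ovation level. Fbxl2, for example, had 6.95, 8.05 and 25.4 CPM in the SMARTer libraries and 29.1, 30.5 and 29.7 CPM in the Ovation libraries.

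Markers of the urothelium showed kit differences of both signs. All 18 listed urothelial differentiation genes passed the filter on low counts, which does not by itself check the label. With all 6 libraries none was called (edgeR, 2 at an unadjusted p under 0.05, none with DESeq2), and without SMARTer library 3, 9 were higher and 6 lower (7 and 7 under total-count scaling), against 13.4% and 14.5% over all genes tested. The uroplakins, which form the plaques of the umbrella cell membrane, went different ways. Upk2 had 658, 650.0 and 124.34 CPM in the SMARTer libraries and 347, 344 and 350.1 CPM in the Ovation libraries, with a log2 fold change of 0.90 without SMARTer library 3 (SE 0.080, adjusted p 4.06e-10 by edgeR) and 0.46 with it (adjusted p 0.657). Upk1a had 919.9, 897 and 183 CPM in the SMARTer libraries and 1841, 1725 and 1701 CPM in the Ovation libraries, with -0.96 without SMARTer library 3 (SE 0.069, adjusted p 4.71e-12) and -1.39 with it (adjusted p 0.242). Without that library Upk2 and Upk1a thus differed in opposite directions between the kits. Upk1b was lower (-0.33 without library 3), and so was Foxa1, a transcription factor of luminal cells (-0.44). Krt20, the keratin of umbrella cells, was higher, with 73.9, 79.8 and 24.1 CPM in the SMARTer libraries and 41.6, 25.4 and 38.1 CPM in the Ovation libraries (1.11, adjusted p 2.61e-05 by edgeR without library 3).

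Of the 7 tested keratin and squamous envelope genes, 5 were higher and 1 lower without SMARTer library 3, against 13.4% and 14.5% over all genes tested. With DESeq2 and under total-count scaling 4 were higher and 1 lower. Krt15, a keratin of basal cells, had 557, 509 and 97.7 CPM in the SMARTer libraries and 234, 223 and 216 CPM in the Ovation libraries (1.24, adjusted p 2.95e-12 by edgeR). Sfn, the epithelial 14-3-3 protein, had 197, 151 and 49.5 CPM in the SMARTer libraries and 58.9, 71.1 and 68.5 CPM in the Ovation libraries (1.39, adjusted p 2.26e-09 by edgeR). Sprr1a, a cornified envelope precursor, was the lower gene (-0.36, adjusted p 0.00013). None of the 7 was called with all 6 libraries (edgeR, 2 at an unadjusted p under 0.05, none with DESeq2).

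Beside the urothelial genes, transcripts typical of other cell types had counts with both kits. Summed CPM, here scaled to library size without TMM factors, was higher for 12 fibroblast genes than for 18 urothelial genes in every library. The fibroblast sums were 11318, 11285 and 3221 in the SMARTer libraries and 13835, 13747.5 and 13490 in the Ovation libraries. The urothelial sums were 6310, 6425 and 1833, and 7230, 6973 and 7102, in that order. Of 12 fibroblast genes, 1 was lower with all 6 libraries (Lum, lumican, at 14.8, 26.1 and 14 CPM in the SMARTer libraries and 59.2, 66 and 53.5 CPM in the Ovation libraries, log2 fold change -1.65, adjusted p 0.0356 by edgeR). The list had 1 higher and 5 lower genes without SMARTer library 3, against 13.4% and 14.5% over all genes tested. Among the lower were Dcn, the proteoglycan decorin (-0.85), and Col1a2, a chain of type I collagen (-0.28). Of 10 smooth muscle genes, 6 were higher and none was lower without SMARTer library 3, and 4 were higher under total-count scaling and with DESeq2, against 13.4% higher and 14.5% lower over all genes tested. One was Des, the intermediate filament desmin, with 12, 14.5 and 24.1 CPM in the SMARTer libraries and 7.78, 5.47 and 4.24 CPM in the Ovation libraries (1.17, adjusted p 0.0298 by edgeR). None of these was called with all 6 libraries (edgeR, 4 at an unadjusted p under 0.05, 1 higher with DESeq2). Endothelial and immune genes mostly did not pass without SMARTer library 3, with 2 higher of 10 and with 2 higher and 1 lower of 10, near the shares of 13.4% and 14.5% over all genes. The endothelial calls fell to 0 under total-count scaling and with DESeq2, and 1 immune gene was higher and 1 lower in each (with all 6 libraries, none by edgeR, 2 and 1 at an unadjusted p under 0.05, none by DESeq2).

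The hemoglobin gene Hbb-bs had 14.2, 17.7 and 7.61 CPM in the SMARTer libraries and 0, 0 and 1.96 CPM in the Ovation libraries, and passed without SMARTer library 3 (adjusted p 6.78e-06 by edgeR) but not with it (0.104). The summed CPM of the skeletal muscle list, without TMM factors, was 3.61, 1.18 and 162.8 in the SMARTer libraries. It was 5.32, 4.61 and 1.61 in the Ovation libraries. In bulk libraries fewer cells of a type and less RNA per cell cannot be told apart. The part of these cell types in any kit difference was not tested.

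Ribosomal protein mRNAs were mostly higher with SMARTer when library 3 was left out. Of 79 tested, 46 were higher and 12 lower without SMARTer library 3, against 13.4% and 14.5% over all genes tested. The lower members thus lay near the share over all genes. The median log2 fold change was 0.34, against 0.01 over all genes tested. Under total-count scaling 38 were higher and 16 lower. With all 6 libraries none was called (edgeR, 8 at an unadjusted p under 0.05, and 5 higher and 2 lower with DESeq2) and the median was -0.03. Their share of counts was 3.10%, 3.03% and 1.09% in the SMARTer libraries and 2.63%, 2.51% and 2.43% in the Ovation libraries. Rps10 and Rps26 were among the lower members, by 0.90 and 0.78 on the log2 scale without SMARTer library 3.

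Nuclear genes of oxidative phosphorylation were higher more often than lower once SMARTer library 3 was left out. Of 73 tested, 24 were higher and 4 lower without SMARTer library 3 (median 0.29), against 13.4% and 14.5% over all genes tested, and 17 were higher and 8 lower under total-count scaling. None was called with all 6 libraries (edgeR, 15 at an unadjusted p under 0.05, and 3 higher and 1 lower with DESeq2). Ndufa5, of complex I, had 29.4, 25.8 and 16.5 CPM in the SMARTer libraries and 9.81, 10.2 and 9.13 CPM in the Ovation libraries (1.496, adjusted p 0.000196 by edgeR without library 3), while Ndufa4 had 12, 14.8 and 8.88 CPM and 29.1, 27 and 26.7 CPM (-1.05, adjusted p 0.00379).

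Of the replication-dependent histone genes, whose mRNAs end in a stem-loop instead of a poly(A) tail, 1 was higher and 7 lower of 24 without SMARTer library 3, against 13.4% and 14.5% over all genes tested. Hist2h3c1 had 1.89, 3.22 and 0 CPM in the SMARTer libraries and 15.9, 18.8 and 13.4 CPM in the Ovation libraries (-2.63, adjusted p 3.75e-05 by edgeR). None of 23 was called with all 6 libraries (edgeR, 7 at an unadjusted p under 0.05, 2 lower with DESeq2). Of 14 glycolytic genes, 5 were higher and none lower without SMARTer library 3, but 2 were higher under total-count scaling and 3 with DESeq2, against 13.4% higher and 14.5% lower over all genes tested. One was Pfkl, the liver-type phosphofructokinase, with 57.2, 44.4 and 31.7 CPM in the SMARTer libraries and 21, 18 and 17 CPM in the Ovation libraries (1.44, adjusted p 7.79e-06 by edgeR). None of them was called with all 6 libraries (edgeR, 3 at an unadjusted p under 0.05, 2 higher with DESeq2).

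Of 16 listed very long mRNAs, 10 were higher and 1 lower without SMARTer library 3 (median 0.44), against 13.4% and 14.5% over all genes tested. Under total-count scaling 8 were higher and 1 lower. Over all nuclear protein-coding genes the longest transcripts did not share this direction. In the longest of 5 length bins, with 2498 genes, 342 were higher and 500 lower (median -0.056), and in the shortest, with 2499 genes, 411 were higher and 240 lower (median 0.14). Syne2, the giant nuclear envelope protein nesprin, had 595, 501 and 357 CPM in the SMARTer libraries and 279.8, 282 and 289 CPM in the Ovation libraries (0.94, adjusted p 1.34e-09 by edgeR). Short secreted and cytokine-like mRNAs showed no common direction, with 4 higher and 4 lower of 17. No member of either list was called with all 6 libraries (edgeR, 3 and 2 at an unadjusted p under 0.05, and 2 and 1 higher with DESeq2).

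The remaining lists held few calls. Without SMARTer library 3, 2 of 3 erythroid genes, the only tested adipocyte gene (Fabp4, 0.52) and 1 of 5 Schwann and neural genes (Uchl1, 0.70) were higher. Of 10 nuclear long noncoding RNAs, 1 was higher and 2 lower, and of 13 immediate early and heat shock genes, 1 was higher (Hsp90aa1, 0.93) and 1 lower (Hspa1b, -0.79). Of 16 listed GC-rich mRNAs, 7 were higher and 1 lower (median 0.31, and 5 higher and 3 lower under total-count scaling), and of 15 listed AT-rich mRNAs, 5 were higher and 1 lower (median 0.12, and -0.0078 under total-count scaling). The shares over all genes tested were 13.4% higher and 14.5% lower. None of these was called with all 6 libraries by edgeR, with at most 2 members of a list at an unadjusted p under 0.05 and at most 1 in each direction by DESeq2.

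Genes often used to normalise expression did not all keep their level between the kits. Gapdh had 98.5, 90.5 and 101 CPM in the SMARTer libraries and 107, 103 and 116 CPM in the Ovation libraries and passed in neither fit (log2 fold changes -0.17 and -0.21, adjusted p 0.695 and 0.233 by edgeR). Actb had 1045, 1017 and 197 CPM in the SMARTer libraries and 1671, 1600.3 and 1677 CPM in the Ovation libraries, lower without SMARTer library 3 (-0.69, adjusted p 3.41e-09) and not called with it (-1.13, adjusted p 0.322). B2m had 234, 253 and 96.4 CPM in the SMARTer libraries and 549, 573.55 and 542 CPM in the Ovation libraries (-1.20, adjusted p 7.56e-12 by edgeR without library 3). Of the 13 housekeeping genes, 2 were higher and 3 lower without SMARTer library 3, near the 13.4% and 14.5% over all genes tested. With all 6 libraries none was called (edgeR, 2 at an unadjusted p under 0.05, 2 lower with DESeq2). The nuclear long noncoding RNA Malat1 had 31208, 31931 and 9038 CPM in the SMARTer libraries and 21746, 22169 and 22510.1 CPM in the Ovation libraries (0.50 without library 3, adjusted p 1.64e-11 by edgeR), and Neat1, the scaffold of paraspeckles, 1568, 1584 and 433 CPM and 1735, 1702 and 1757 CPM (-0.14, adjusted p 0.0924).

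**Figure D3:**
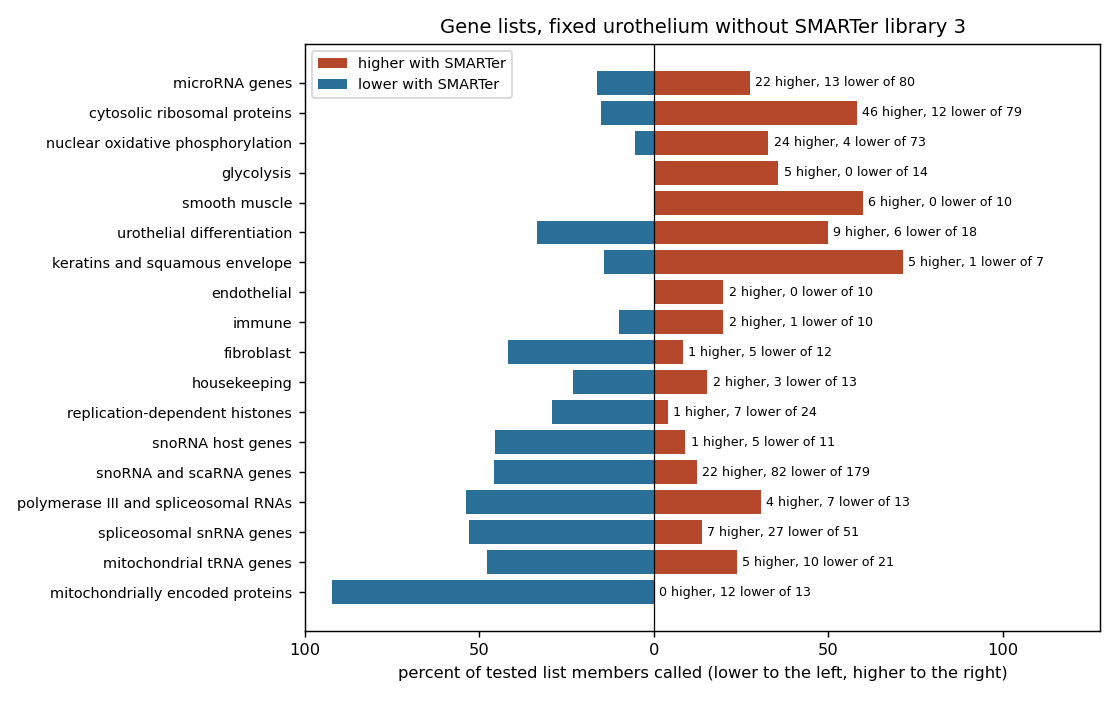
Percent of the tested members of 18 gene lists that were called without SMARTer library 3 (edgeR, adjusted p under 0.05), higher with SMARTer to the right and lower to the left, with counts beside the bars. Mitochondrially encoded proteins (12 of 13) and snRNA genes (27 of 51) lay mostly to the left, and ribosomal proteins (46 of 79) mostly to the right. Over all genes tested 13.4% were higher and 14.5% lower.

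Across nuclear protein-coding genes the kit difference followed the base composition of the transcript. Genes were ranked by the G+C content of their annotated transcript and divided into 5 bins of 2498. Without SMARTer library 3 the median log2 fold change was -0.34 in the lowest bin (20.6% to 43.8% G+C) and 0.32 in the highest (55.5% to 76.5%), with -0.14, 0.02 and 0.17 between. In the lowest bin 4.84% of genes were higher and 32.1% lower with SMARTer, and in the highest 23.6% were higher and 3.76% lower, against 13.4% and 14.5% over all genes tested. With all 6 libraries the medians were -0.29, -0.05, 0.12, 0.26 and 0.37, so the order held with SMARTer library 3 included. Across genes measured in these same libraries, the Spearman correlation of G+C content with the log2 fold change was 0.382 without SMARTer library 3 (12490 genes) and 0.317 with it (12388 genes), and that of transcript length was -0.107 and -0.0501 in these fits. Length and G+C content were themselves correlated across these genes (-0.256). Genes are not independent replicates, and these coefficients are descriptions.

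**Figure D4:**
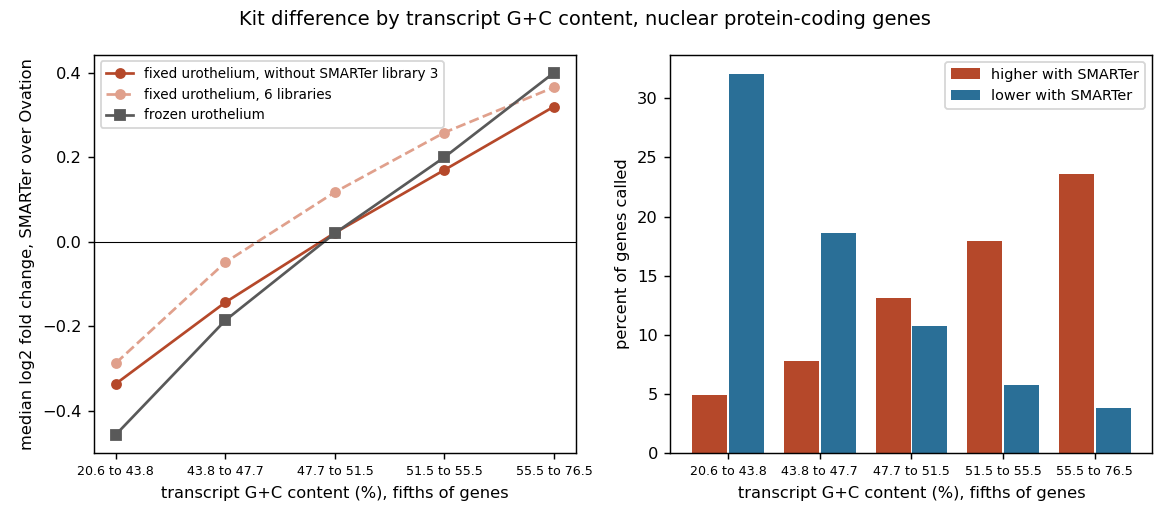
Left, median log2 fold change (SMARTer over Ovation) of nuclear protein-coding genes in 5 bins of transcript G+C content, for fixed urothelium without SMARTer library 3, with all 6 libraries, and for frozen urothelium. Right, percent of genes called higher or lower with SMARTer in fixed urothelium without library 3. Medians run upward from the lowest bin to the highest in all 3 lines.

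The same kits were also used on frozen urothelium and on fixed BC57 cells, a mouse bladder cancer line, at 2 ng, in libraries that share none with the 6 described. Calls in these materials came from fits that also held the fixed urothelium libraries, with a shared filter, scaling and estimate of the spread. Shared calls are therefore not an independent check. Of the 4124 calls in fixed urothelium without SMARTer library 3, 3107 (75.3%) were also called in the same direction in frozen urothelium, which is 52.7% of its 5894 calls, and 22 in the opposite direction. Of these tested genes, 39.9% were called in frozen urothelium (39% of all 15314 tested in its fit). In fixed BC57 cells 2546 (61.7%) were called in the same direction, which is 59.1% of its 4309 calls there, and 16 in the opposite one, where 29.1% of these genes were called (27.7% of the 16379 tested in its fit). Across 14786 genes the log2 fold change of fixed urothelium correlated with that of frozen urothelium at r = 0.693 and with that of fixed BC57 cells at r = 0.537, given as descriptions. Genes with few or no counts in BC57 cells stayed among those tested there and could hardly be called. The shares and r of BC57 cells and of frozen urothelium are therefore not on equal terms. Of the 163 genes called with all 6 libraries, 144 (88.3%) were called in the same direction in frozen urothelium and 139 (85.3%) in BC57 cells, and none in the opposite direction, where 18% and 7.02% of genes were called in the fits of 12 libraries. The medians by G+C bin in frozen urothelium were -0.46, -0.19, 0.02, 0.20 and 0.40.

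Some single genes had close values in all 3 materials, and others did not. Rny1 differed by -4.35 in fixed urothelium, -4.63 in frozen urothelium and -3.79 in fixed BC57 cells on the log2 scale. Gm24270 differed by 6.70, 6.96 and 6.09, Myadm by -1.95, -1.65 and -1.79, and Rplp2 by 2.18, 2.02 and 1.95 in that order of materials. The gene mt-Atp8 differed by -2.69, -2.97 and -2.80. All of these were called in each material (edgeR, adjusted p under 0.05). Other named genes varied more between materials. In the same order, Srp54c differed by 3.38, 1.70 and 2.17, Snord13 by -3.96, -5.10 and -2.95, and Zxdb by -2.35, -1.95 and -0.92.

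**Figure D5:**
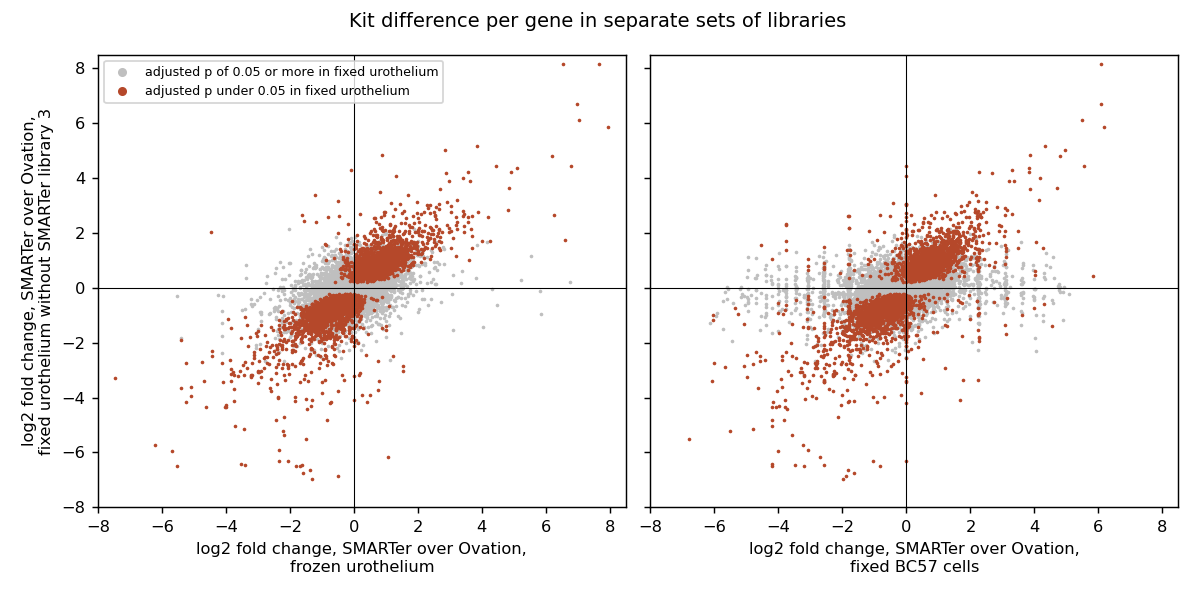
Log2 fold change, SMARTer over Ovation, of 14786 genes in fixed urothelium without SMARTer library 3 (vertical) against frozen urothelium (left) and fixed BC57 cells (right), with genes called in fixed urothelium in red. Most red points lie in the lower left and upper right corners of the axes, 3 genes (left) and 4 genes (right) lie outside the axes, and the vertical bands on the right are genes with few or no counts in BC57 cells.

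Whether the kit difference itself changed with preservation was tested as an interaction, fixed minus frozen. With all 12 libraries 0 of 15016 genes (0%) passed in edgeR, with 1133 at an unadjusted p under 0.05 and 19 called by DESeq2. Without SMARTer library 3, 285 of 15314 (1.86%) passed, 123 with a higher (0.803%) and 162 with a lower (1.06%) SMARTer-over-Ovation ratio in fixed than in frozen urothelium. Mitochondrial transcripts were among them. The gene mt-Rnr1 had a log2 fold change of 1.65 in fixed and 2.71 in frozen urothelium, a difference of -1.06 (SE 0.085, adjusted p 2.94e-10 by edgeR). The gene mt-Ty had a log2 fold change of -2.70 in fixed and -4.75 in frozen urothelium, a difference of 2.05 (SE 0.12, adjusted p 6.26e-14). Rn7sk differed by -0.47 in fixed and -1.95 in frozen urothelium, a difference of 1.47 (SE 0.088, adjusted p 1.06e-13). In these 3 genes the kits lay closer together in fixed than in frozen RNA.

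The interaction with the sample, fixed urothelium minus fixed BC57 cells, gave 0 of 16348 genes (0%) with all 12 libraries in edgeR, with 942 at an unadjusted p under 0.05 and 11 called by DESeq2. Without SMARTer library 3 of either sample, 49 of 16379 (0.299%) passed, 20 with a higher (0.122%) and 29 with a lower (0.177%) ratio in urothelium. Leaving out SMARTer library 3 of the urothelium alone gave 4. The gene mt-Nd3 had a log2 fold change of -2.63 in urothelium and -3.88 in BC57 cells, a difference of 1.25 (SE 0.15, adjusted p 8.16e-06 by edgeR). Tagln, an actin-binding protein of smooth muscle, was higher by 0.65 in urothelium and had a log2 fold change of -1.65 in BC57 cells, a difference of 2.30 (SE 0.37, adjusted p 0.000809).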

How the data were processed

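The 2 low-input kits have a raw count table each, which were joined by Ensembl identifier, with 39179 genes. The deposited counts are whole read counts per gene. Per the submitters' processing notes, which name no versions, STAR, SAMtools and featureCounts were used on mm10. Which annotation was counted, and whether by strand, is not given in the sources used here. Both kits keep the strand, per the labels' protocols. The authors also deposited log2 values made from these counts, which served only as an alternative. GENCODE M21 on GRCm38 gave symbols, biotypes, lengths and G+C content for 37693 genes, and the remaining 1486 stayed in the tests (at most 1.59% of counts).

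After a filter on low counts (filterByExpr) and TMM scaling, kits were compared with edgeR's quasi-likelihood test (edgeR 4.0.16, R 4.3.3), with Benjamini-Hochberg adjustment over all tested genes. The 6 libraries were fitted first, then 5 without SMARTer library 3. Interactions with frozen urothelium and fixed BC57 cells used 12 libraries, then 11 and 10. The standard error is the size of the log2 fold change over the root of F. The scripts were tested on simulated data. Shares and detected genes were compared by exact two-sided permutation tests. Intervals cover counting error only, since PCR reads are not independent molecules.

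Named genes had an adjusted p under 0.05, 20 CPM or more on average in whichever group was higher, libraries that did not overlap and no Gm, Rik, AC, BC or -ps symbol. The 10 protein-coding and 5 other genes of largest fold per direction were taken, with up to 4 members of each of the 25 lists, 5 per direction and class for interactions, and Gapdh, Actb, Upk2, Malat1 and Neat1. Gm genes, Zfp422 and overlapping partner genes outside this rule were named after their values were seen. The members, the lists and the rule were chosen with earlier results of these data known. Alternatives were other scalings, no filter, DESeq2 1.42.0, limma 3.58.1 on the log2 values, a replicate block, thinning (seed 29), gene subsets and each library left out. Sequences of some small RNA genes are not reported here.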

Additional observations from a re-analysis of the deposited data

Results flagged for a closer look

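The results below were singled out because the kit difference itself changed between materials by a test of the interaction (edgeR quasi-likelihood, Benjamini-Hochberg adjusted over all genes, without the third SMARTer library of the fixed groups). None passed with all 12 libraries, and a value is the log2 fold change in fixed urothelium minus that in the other material.

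Against frozen urothelium, the kit difference was more positive in fixed urothelium for Gstm3, a glutathione S-transferase (1.59, adjusted p 7.53e-05), Atp5l, a subunit of ATP synthase (1.26, adjusted p 0.00687), and Mtmr1, a phosphoinositide phosphatase (1.15, adjusted p 0.00251). It was also more positive for mt-Nd3 (1.23, adjusted p 0.000145), mt-Ty (2.05, adjusted p 6.26e-14) and Rn7sk (1.47, adjusted p 1.06e-13). Gstm3 had a log2 fold change of 0.08 in fixed and -1.51 in frozen urothelium. The difference was negative for Fam43a (-1.76, adjusted p 0.015), Trir (-1.76, adjusted p 7.17e-05), Tma7, a ribosome-associated protein (-1.57, adjusted p 0.00653), and Ywhah, a 14-3-3 protein (-1.35, adjusted p 0.000194). Trir had -0.65 in fixed and 1.11 in frozen urothelium. It was negative also for Rn7s1, a copy of the signal recognition particle RNA (-1.22, adjusted p 7.53e-05), mt-Rnr1 (-1.06, adjusted p 2.94e-10) and mt-Rnr2 (-0.94, adjusted p 1.47e-09).

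Against fixed BC57 cells, the kit difference was more positive in urothelium for mt-Nd3 (1.25, adjusted p 8.16e-06), Tagln (2.30, adjusted p 0.000809), Prickle3, a planar polarity protein (1.68, adjusted p 0.000187), and mt-Nd6, a complex I subunit (0.56, adjusted p 0.00815). It was more negative for Snapc3, a subunit of the activator of snRNA genes (-1.52, adjusted p 8.16e-06), Psip1, a chromatin protein (-1.01, adjusted p 0.000771), Snord104 (-1.64, adjusted p 0.00897) and Snhg15 (-0.90, adjusted p 0.00952). Exons of Snapc3 and Psip1 overlap by 226 bases on opposite strands, so the same reads may count for both if strand was not used. Prickle3 had a log2 fold change of -0.23 in urothelium and -1.91 in BC57 cells.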

How the results depend on the processing

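Against 163 calls with all 6 libraries, counts were 412 (78 higher, 334 lower) with total counts only, 81 with no filter on low counts, 990 (41.8% higher, against 26.4%) with DESeq2, 7 without mitochondrial, small RNA and ribosomal-repeat genes and 4 with protein-coding genes only. Leaving out a library gave 10 to 4297 calls, counting the fits that also lack SMARTer library 3. Without that library counts were 3117 with DESeq2, 3923 thinned, 3621 with protein-coding genes only and 4233 with total counts only, where 32.6% were higher, against 47.9%, and the median of all genes was -0.12, against 0.01. RLE, upper-quartile, robust and limma settings and thinning of all 6 libraries stayed within 1.5 times. The cause was not tested where counts moved.

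With the replicate number as a block, the 6 libraries gave 80 calls (19 higher, 61 lower). Deviations from the group mean correlated at 0.008 to 0.016 for same-numbered libraries and at -0.020 to 0.0079 for differently numbered ones. The group means include SMARTer library 3, so whether the numbers pair libraries cannot be decided from these values.

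Interactions gave 0 calls with all libraries. With preservation, DESeq2 gave 19, leaving out a library 0 to 285, and leaving out the third SMARTer library of the fixed groups 285. With sample, these gave 11, 0 to 4, and 49.

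Values that changed sign were those of Gm42418 (-0.0606 with total counts, -0.49 with limma, -0.46 with the block, -0.76 to 0.93 leaving out a library) and Malat1 (-0.0377 with limma, -0.0709 with the block, -0.15 to 0.52). Leaving out a library also turned Lars2 (-0.41 to 1.22) and Gm26917 (-0.94 to 0.0891), the SMARTer minus Ovation difference in detected genes (-99.5 to 5068.5) and that in ribosomal protein share (-0.467 to 0.542 percentage points, and 0.136 among nuclear protein-coding genes only). The depth of 780106 counts in SMARTer library 3 limits the 6-library comparison of low genes.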
